A study of Mus musculus with 8 samples.

Results

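The question addressed here was how SRT1720 altered the response of fibroblasts to RSL3, read as an interaction in a design with both compounds present or absent. All 8 libraries of the series entered, and all 17910 genes of the count table were considered. The interaction of a gene is a difference of log2 fold changes, that of SRT1720+RSL3 over RSL3 minus that of SRT1720 over control. It equals the log2 fold change of SRT1720+RSL3 over SRT1720 minus that of RSL3 over control. A value below 0 thus means that RSL3 raised a gene less, or lowered it more, when SRT1720 was present. The test was edgeR's quasi-likelihood F test (two-sided, Benjamini-Hochberg adjusted over all tested genes), and a gene is called where its adjusted p was under 0.05.

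RNA was sequenced from wild-type mouse embryonic fibroblasts, which are connective tissue cells from embryos, here obtained from ATCC and described without any engineered allele. SRT1720+RSL3 cells received 0.2 µM SRT1720 and, after 30 min, 1 µM RSL3. RSL3 cells received 1 µM RSL3 for 2 h, SRT1720 cells 0.2 µM SRT1720, and control cells neither compound. A vehicle is not named. The labels give 2 h for all 4 groups and a pretreatment for SRT1720+RSL3 cells only. The length of SRT1720 exposure may thus differ between SRT1720+RSL3 and SRT1720 cells. There were 2 libraries in each of the 4 groups. The labels write the concentration unit as "um", which was read as µM.

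RSL3 blocks GPX4, a selenoenzyme that reduces lipid hydroperoxides in membranes, and it is widely used to bring on ferroptosis, a form of cell death driven by iron and lipid peroxidation. SRT1720 is known as a compound that activates SIRT1, an NAD-dependent deacetylase whose known substrates include FOXO transcription factors. Several stress programmes appear among the genes below. The hypoxia programme is run by HIF transcription factors, which prolyl hydroxylases mark for degradation in the presence of oxygen and iron. SREBP-2 runs cholesterol synthesis, and YAP with TEAD factors runs genes that respond to cell shape and adhesion.

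The libraries held 20579122 to 21287620 counts, and 12618 genes passed the filter on low counts, while 5292 did not. Levels are counts scaled to a common library total by the TMM method (CPM), and the standard errors (SE) of log2 values were derived from the estimate and its F statistic. Whether the libraries of a group came from separate cultures is not stated in the labels. The p-values therefore reflect the spread among these libraries alone, and that spread may be technical. That spread was uneven: over 7062 genes, the SD of the log2 difference between the libraries of a pair was 0.15 in SRT1720+RSL3, 0.28 in RSL3, 0.14 in SRT1720 and 0.23 in control cells. The differences within the control pair and within the RSL3 pair ran together across these genes (Pearson r = 0.70, a description over genes that share these 4 libraries). Fibroblast markers were expressed, with a summed level of 5343 to 5533 CPM in SRT1720+RSL3, 6443 to 7109 in RSL3, 4682 to 4970 in SRT1720 and 5571 to 6505 in control cells; 1 of 8, the growth factor receptor gene Pdgfrb, had a called interaction (below 0), and Dcn stayed under 0.72 CPM in all libraries. Of the markers of macrophages, endothelium, epithelium, muscle, neural cells, and adipocytes and chondrocytes, 15 were tested and 0 had a called interaction in edgeR, while 2 had an unadjusted p under 0.05 and 1 was called by DESeq2 and 0 by limma-voom. Sox9 reached 246 CPM, and the sum of its adipocyte and chondrocyte list was 251 to 252 CPM in SRT1720+RSL3, 155 to 186 in RSL3, 61.1 to 69.0 in SRT1720 and 37.8 to 38.6 in control cells. Nes reached 239 CPM, and the sum of its neural list was 237 to 240 CPM in SRT1720+RSL3, 219 to 220 in RSL3, 233 to 276 in SRT1720 and 248 to 269 in control cells. In bulk RNA, fewer cells of a type and less RNA per cell cannot be told apart.

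SRT1720 acted differently in the presence and absence of RSL3 on 804 genes (6.37% of those tested). The interaction was above 0 for 436 genes (3.46%) and below 0 for 368 (2.92%), and 207 and 189 of these differed by 2-fold or more. At an unadjusted p under 0.05 there were 2679 genes. Scaling by library size alone gave 600 genes above 0 and 284 below, that is 67.9% above 0 against 54.2% with TMM. The counts moved with the library left out: they were 83 above and 100 below without SRT1720 replicate 1, 128 and 128 without SRT1720 replicate 2, 135 and 136 without SRT1720+RSL3 replicate 1, 120 and 107 without SRT1720+RSL3 replicate 2, 286 and 265 without control replicate 1, 258 and 219 without control replicate 2, and 707 and 540 without RSL3 replicate 1. When the interaction was recomputed from 1 library of each group, it had the same sign in all 16 choices for each of the 804 called genes, against 4605 (36.5%) of all tested genes. The 16 choices reuse the libraries that made the calls, so these counts describe the called genes and do not test them. On the linear scale, where the effects of the compounds would add in CPM rather than multiply, the interaction kept its sign for 436 of 436 genes above 0 and 367 of 368 below, and for 95.5% of all tested genes. This compares signs only, from the same means. The size can depend on the scale, as the linear values of Chac1 and Ptgs2 below show.

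In RSL3-treated cells SRT1720 changed more genes, and most called genes moved further there. SRT1720 changed 165 genes against control (1.31%; 139 rose and 26 fell), whereas SRT1720+RSL3 against RSL3 gave 2546 (20.2%; 1442 rose and 1104 fell). For 431 of the 436 genes above 0 the effect of SRT1720 was larger in size with RSL3 than without, as it was for 294 of the 368 below 0 and for 65.2% of all tested genes. Across the 12618 genes the effect of RSL3 in SRT1720-treated cells followed its effect in cells without SRT1720 (Pearson r = 0.61, Spearman rho = 0.59), while the 2 effects of SRT1720 followed each other less closely (r = 0.25, rho = 0.26). These are descriptions across genes, which are not independent, and the 2 effects in each pair share no library. The SRT1720 effect with RSL3 rests on pairs with SDs of 0.15 (SRT1720+RSL3) and 0.28 (RSL3). Without RSL3 it rests on pairs with 0.14 (SRT1720) and 0.23 (control). The part of this unequal spread in the shares and correlations was not tested.

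**Figure D1:**
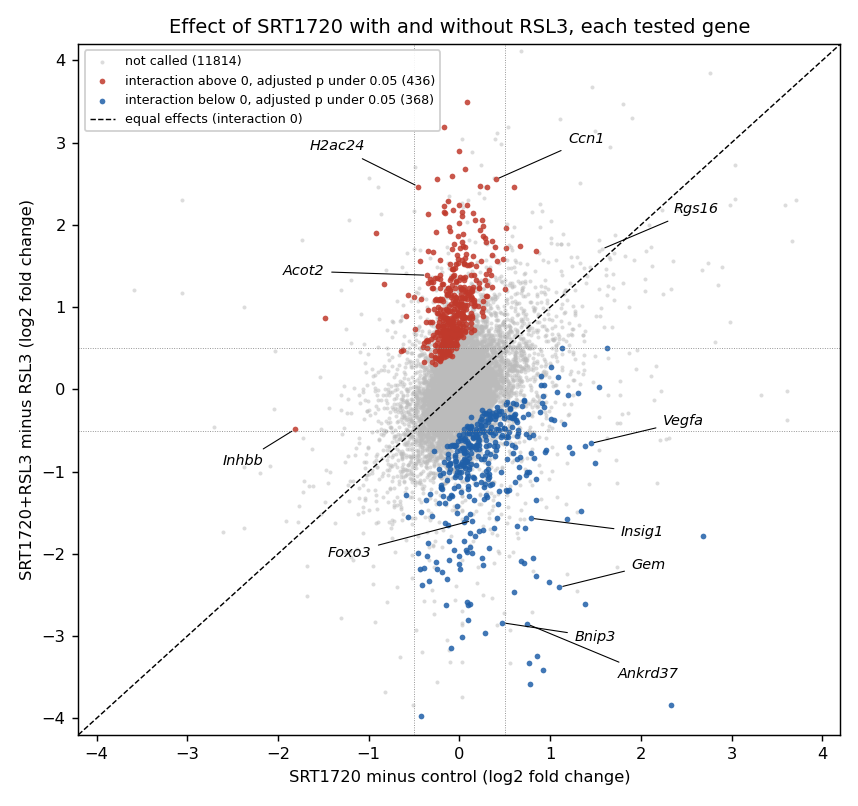
Effect of SRT1720 with RSL3 (SRT1720+RSL3 minus RSL3, vertical axis) against its effect without RSL3 (SRT1720 minus control, horizontal axis), both as log2 fold changes, 1 point a tested gene; red and blue points are the 436 genes with an interaction above 0 and the 368 below 0, dotted lines lie at 0.5 in either direction, and 22 genes fall outside the axes. The called genes stand in a vertical band, since most had small effects without RSL3.

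The shape of the 4 group means was read by whether SRT1720 moved a gene by at least 0.5 on the log2 scale in each background. Of the 804 called genes, 385 were flat without RSL3 and higher with SRT1720 in its presence, and 217 were flat without RSL3 and lower with SRT1720 in its presence. A further 58 were higher with SRT1720 alone but lower with SRT1720 in RSL3-treated cells, 39 were higher without RSL3 and flat with it, and 88 were flat by this measure in both. The remaining shapes were rare: 7 genes were higher in both backgrounds, 5 were lower without RSL3 and higher with it, 3 were lower without it and flat with it, and 2 were lower in both. Over all tested genes, 8828 were flat in both, 1253 flat and higher, 1115 flat and lower, 412 higher and flat, and 139 higher and lower. The boundaries between these shapes are a choice, and with a boundary of 1 the first 2 shapes held 191 and 130 called genes.

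Ordered by level, RSL3 alone was the extreme group. It had the highest mean in 343 of the 368 genes below 0 (93.2%) and the lowest in 413 of the 436 genes above 0 (94.7%), while over all tested genes it was highest in 30.9% and lowest in 29.0%. The order and the interaction are drawn from the same 4 means, so these shares describe the called genes and do not test them. Among the 413 genes with RSL3 lowest, control was highest in 188, SRT1720+RSL3 in 161 and SRT1720 in 64. Among the 343 genes with RSL3 highest, control was lowest in 225, SRT1720+RSL3 in 89 and SRT1720 in 29. On the log2 scale, SRT1720+RSL3 cells lay nearer to control cells than to RSL3 cells for 395 of the 436 genes above 0 and 243 of the 368 below 0. The share over all tested genes was not computed. These counts, and the medians that follow, also come from the means that made the calls and do not test a return towards control. The median effect of RSL3 on the 436 genes was 0.05 with SRT1720 and -0.93 without it. On the 368 genes it was 0.14 with SRT1720 and 1.29 without it.

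A related view came from genes grouped by the effect of RSL3 averaged over both SRT1720 conditions. The average and the interaction use the same libraries. Errors in the RSL3 and control pairs enter both with opposite signs, and errors in the other 2 pairs enter both with the same sign. The spread was wider within the RSL3 and control pairs (given above). The differences within those pairs ran together (r = 0.70), and what they share cancels in RSL3 over control. The part of these errors in the shares was not tested. Over all tested genes, 60.1% had an interaction opposite in sign to the average effect of RSL3, and 54.3% of the 7329 genes whose average effect did not pass the threshold did. Of 2701 genes higher with RSL3 on average (21.4% of those tested), 67.2% had an interaction of the opposite sign, and of 2588 lower genes (20.5%), 69.1% did. Among those that differed by 2-fold or more, the shares were 78.5% of 576 and 74.3% of 405. Over the 576, the median effect of RSL3 was 1.26 with SRT1720 and 1.88 without it, and over the 405 it was -1.09 with SRT1720 and -1.60 without it. Grouped instead by the average effect of SRT1720, the sign ran the other way: 24.8% of the 1159 higher genes (9.19%) and 14.0% of the 807 lower genes (6.4%) had an interaction of the opposite sign, against 34.8% of all tested genes. An opposite sign here means a larger effect of SRT1720 without RSL3, so the 34.8% restates the 65.2% given above. Errors in the RSL3 pair enter this average and the interaction with the same sign, and their part was not tested. Scaling by library size alone moved the median effect of RSL3 by -0.21 in SRT1720-treated cells and -0.28 in cells without SRT1720, so directions of RSL3 effects are those after TMM scaling; the median interaction moved by 0.08.

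The hypoxia and glycolysis genes had the lowest median interaction of the 24 lists. Of 34 tested members, 23 had a called interaction below 0 and 0 above 0, and 32 had values below 0; the median was -0.91. Over all tested genes, 2.92% were called below 0 and 3.46% above 0, 51.9% had values below 0 and the median was -0.02, and the counts of the lists that follow are to be read against these shares. The median effect of RSL3 on them was 0.08 with SRT1720 and 0.95 without it, and the median effect of SRT1720 without RSL3 was 0.12. Their summed level was 21337 to 22871 CPM in SRT1720+RSL3, 30268 to 32799 in RSL3, 19232 to 19631 in SRT1720 and 17137 to 17701 in control cells. The list was chosen with earlier results of these data known, and its count was between 16 and 26 under the other settings and library choices that were run.

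Bnip3 (NCBI Gene ID 12176), a mitochondrial outer membrane protein that promotes mitophagy, had 17.3 and 16.2 CPM in SRT1720+RSL3 cells, 117 and 122 CPM in RSL3 cells, 18.0 and 16.3 CPM in SRT1720 cells and 12.5 and 12.2 CPM in control cells. Only the RSL3 libraries were high, and the other 3 groups lay close together. The interaction was -3.31 ± 0.15 (SE; 95% interval -3.65 to -2.97; adjusted p = 1.98e-05). Ankrd37 (654824), an ankyrin repeat protein known as a HIF target, had 1.50 and 2.53 CPM in SRT1720+RSL3 cells, 13.6 and 15.5 CPM in RSL3 cells, 2.60 and 1.94 CPM in SRT1720 cells and 1.37 and 1.33 CPM in control cells, with an interaction of -3.60 ± 0.38 (adjusted p = 0.000964). Pdk1 (228026), the kinase that shuts pyruvate out of the mitochondrial citric acid cycle, had 7.43 and 6.57 CPM in SRT1720+RSL3 cells, 30.9 and 32.6 CPM in RSL3 cells, 9.04 and 8.33 CPM in SRT1720 cells and 8.79 and 8.49 CPM in control cells (-2.19 ± 0.18, adjusted p = 0.000334). In these genes too the RSL3 libraries stood above all 6 others. Slc16a3, the lactate exporter MCT4, which is not a member of the list, had 3.89 and 3.28 CPM in SRT1720+RSL3 cells, 21.5 and 18.0 CPM in RSL3 cells, 4.66 and 4.85 CPM in SRT1720 cells and 3.0 and 3.27 CPM in control cells (-3.06 ± 0.25, adjusted p = 0.000331).

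Some members were also raised by SRT1720 alone. Vegfa (22339), the angiogenic growth factor, had 666 and 645 CPM in SRT1720+RSL3 cells, 931 and 1135 CPM in RSL3 cells, 263 and 282 CPM in SRT1720 cells and 103 and 96.3 CPM in control cells. The effect of SRT1720 was -0.66 with RSL3 and 1.45 without it, both past the threshold, and the interaction was -2.11 ± 0.16 (adjusted p = 0.000228). The following members were picked after their values were seen. The glucose transporter gene Slc2a1 had effects of SRT1720 of -1.0 with RSL3 and 0.74 without it (interaction -1.74 ± 0.15), and Ndrg1, a known HIF-responsive gene, had -1.01 and 0.76 (interaction -1.77 ± 0.16). Kdm3a, a histone H3K9 demethylase, had an interaction of -2.07 ± 0.19, the collagen prolyl hydroxylase subunit P4ha1 -1.28 ± 0.12, and lactate dehydrogenase A, Ldha, -1.14 ± 0.13. Egln1, the prolyl hydroxylase that marks HIF for degradation, had 46.4 and 48.6 CPM in SRT1720+RSL3 cells, 119 and 135 CPM in RSL3 cells, 61.6 and 67.4 CPM in SRT1720 cells and 67.2 and 63.9 CPM in control cells (-1.40 ± 0.15, adjusted p = 0.000964). Here SRT1720+RSL3 cells were below control cells. The transcript of Hif1a itself, the oxygen-regulated subunit, had 132 and 107 CPM in SRT1720+RSL3 cells, 134 and 160.3 CPM in RSL3 cells, 122 and 119.8 CPM in SRT1720 cells and 103 and 123 CPM in control cells, and its interaction did not pass the threshold (-0.39 ± 0.19, adjusted p = 0.274). The libraries of SRT1720+RSL3, SRT1720 and control cells overlapped, and the RSL3 libraries lay just above them.

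The core of the hypoxia response element, ACGTG on either strand, was looked for in the promoters of RefSeq (GRCm38.p6), taken from 250 bases before to 50 after the start of the gene; 10099 of the 12618 tested genes had one. It was found in 18 of 31 hypoxia and glycolysis promoters (58.1%), in 108 of 301 promoters of genes with an interaction below 0 (35.9%), in 80 of 355 of genes above 0 (22.5%), and in 25.9% of all. A match is a run of letters and not a site of binding. The same letters are part of the E-box CACGTG, so an E-box counts as a match. Other motifs were searched in the same windows: GAANNTTC (heat shock), TGACNNNGC (antioxidant response), TGACGTCA (cyclic AMP response), TGATGNAA (ATF4 composite), TGANTCA (AP-1), TGTTTAC (FOXO) and TNGCGTG (xenobiotic response). The FOXO letters were in 2.99% of promoters of genes below 0 and in 2.41% of all, and the antioxidant letters were in 19.9% and 14.7%. The promoters of 4 list members that carry the match are shown 5′ to 3′ on the strand of the gene, with each match in capitals, because all 4 had a called interaction below 0 and were highest with RSL3 alone.
Bnip3 (chr7:138909457-138909756, minus strand): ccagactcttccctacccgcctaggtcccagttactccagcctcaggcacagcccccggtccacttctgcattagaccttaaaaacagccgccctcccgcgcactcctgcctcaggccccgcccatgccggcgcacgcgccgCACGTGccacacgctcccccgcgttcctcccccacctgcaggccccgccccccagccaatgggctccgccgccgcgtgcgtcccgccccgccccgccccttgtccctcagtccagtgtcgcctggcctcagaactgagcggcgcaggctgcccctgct
Ankrd37 (chr8:45999801-46000100, minus strand): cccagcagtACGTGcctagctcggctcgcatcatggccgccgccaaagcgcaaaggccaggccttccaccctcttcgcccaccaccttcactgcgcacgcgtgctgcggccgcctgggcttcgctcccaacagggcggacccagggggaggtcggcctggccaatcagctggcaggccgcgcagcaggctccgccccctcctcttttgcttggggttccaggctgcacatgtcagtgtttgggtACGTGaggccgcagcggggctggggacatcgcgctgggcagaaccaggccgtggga
Egln1 (chr8:124949205-124949504, minus strand): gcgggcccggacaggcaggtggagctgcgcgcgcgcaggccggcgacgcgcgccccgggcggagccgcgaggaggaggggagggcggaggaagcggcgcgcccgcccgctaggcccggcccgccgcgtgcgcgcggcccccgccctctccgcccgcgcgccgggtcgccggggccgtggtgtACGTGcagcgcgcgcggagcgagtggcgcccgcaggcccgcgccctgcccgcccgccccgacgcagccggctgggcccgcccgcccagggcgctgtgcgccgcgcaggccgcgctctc
Slc2a1 (chr4:119108495-119108794, plus strand): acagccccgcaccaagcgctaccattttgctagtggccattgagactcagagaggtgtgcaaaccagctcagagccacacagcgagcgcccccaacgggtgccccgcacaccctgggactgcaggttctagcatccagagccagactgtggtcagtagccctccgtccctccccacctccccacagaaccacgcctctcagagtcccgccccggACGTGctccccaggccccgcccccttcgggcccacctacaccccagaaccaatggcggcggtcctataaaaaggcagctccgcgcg
In Bnip3 the matches on both strands overlap in a single CACGTG, and Ankrd37 has a match near the upstream end of the window and another next to the start. The windows of Pdk1, Kdm3a and Vegfa do not hold these letters.

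**Figure D2:**
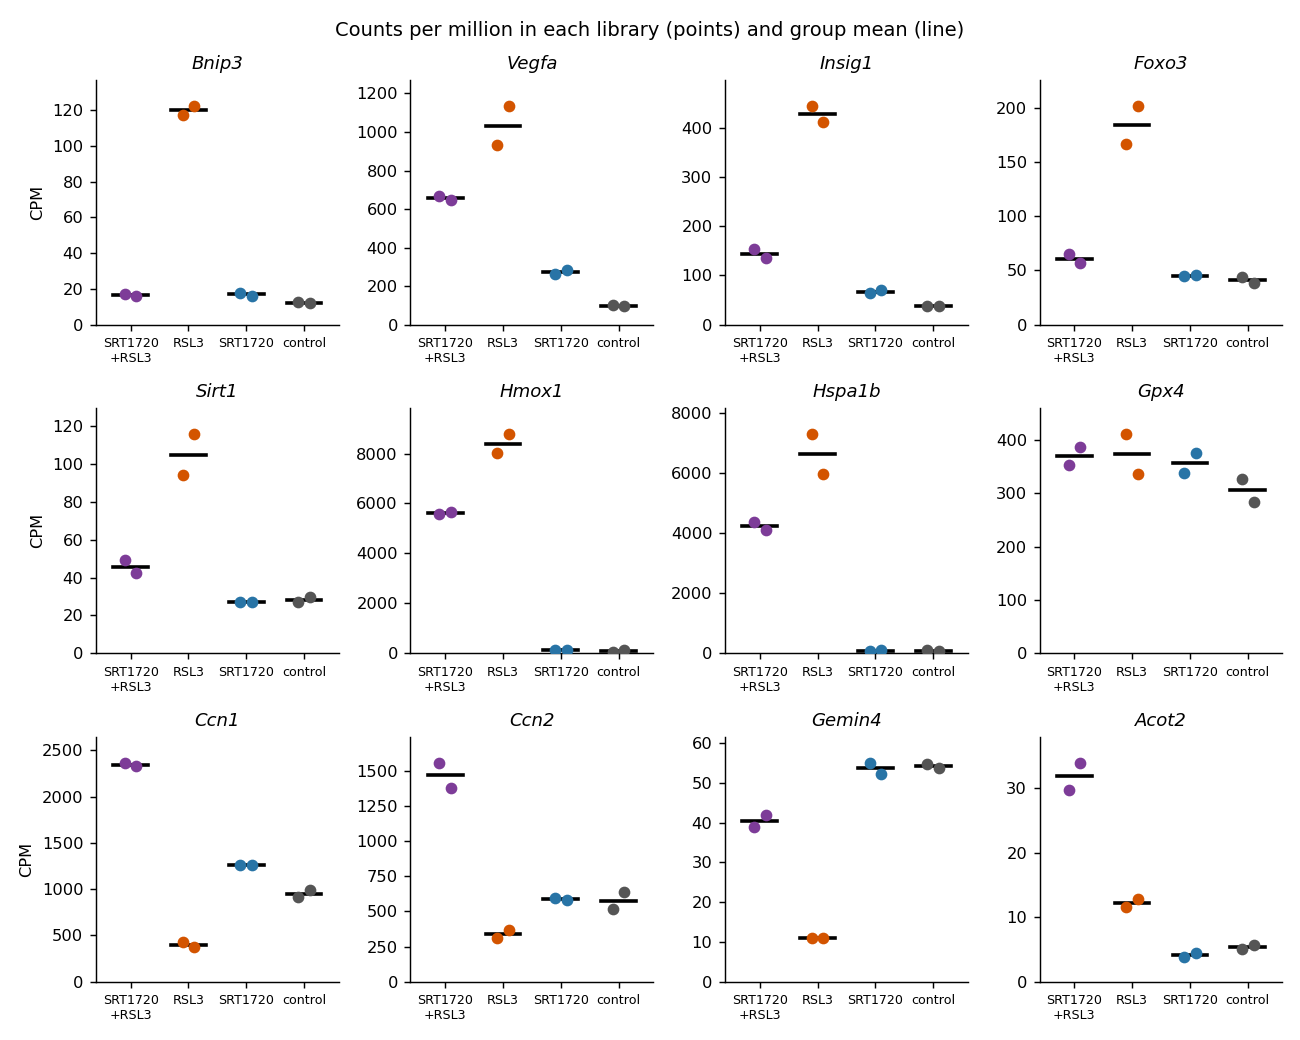
Levels (CPM, TMM scaled) of 12 genes in each library; points are libraries, lines are group means, and each panel has its own linear axis from 0. Bnip3, Vegfa, Insig1, Foxo3, Sirt1, Hmox1 and Hspa1b are highest with RSL3 alone, Ccn1, Ccn2 and Gemin4 are lowest with RSL3 alone, Acot2 is highest with both compounds, and Gpx4 varies little.

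FOXO factors and their targets had 12 of 32 tested members with a called interaction below 0 and 1 above 0 (median -0.61). Foxo3 (56484), the transcription factor named in the title of the study, had 65.1 and 56.7 CPM in SRT1720+RSL3 cells, 167 and 201 CPM in RSL3 cells, 45.0 and 45.6 CPM in SRT1720 cells and 43.6 and 38.8 CPM in control cells. The RSL3 libraries were above all others, and the interaction was -1.73 ± 0.17 (adjusted p = 0.000786). Ccng2, a cyclin that restrains the cell cycle and a known FOXO target, had 11.2 and 8.69 CPM in SRT1720+RSL3 cells, 54.2 and 68.3 CPM in RSL3 cells, 4.07 and 3.26 CPM in SRT1720 cells and 3.60 and 3.27 CPM in control cells (-2.72 ± 0.27, adjusted p = 0.000786). Cdkn1a, the cell cycle inhibitor p21, had an interaction of -1.56 ± 0.18, with the effect of SRT1720 at -0.77 in RSL3-treated cells and 0.79 in cells without RSL3. Bcl2l11 (BIM, a pro-apoptotic BCL-2 family member, -1.17 ± 0.16) and Irs2 (an insulin receptor substrate, -0.97 ± 0.17) were named after their values were seen. The call of Irs2 was lost without SRT1720 replicate 2 (adjusted p = 0.0729) and without SRT1720+RSL3 replicate 2 (0.0601). The member above 0 was Cited2, which competes with HIF for its coactivators, with 837 and 793 CPM in SRT1720+RSL3 cells, 352 and 349 CPM in RSL3 cells, 579 and 598 CPM in SRT1720 cells and 432 and 399 CPM in control cells (0.71 ± 0.12, adjusted p = 0.0102). SRT1720 raised Cited2 in both backgrounds, more with RSL3; its call was lost without SRT1720 replicate 1 (adjusted p = 0.0701), SRT1720 replicate 2 (0.0515) or SRT1720+RSL3 replicate 1 (0.0598). Bnip3 belongs to this list and to the hypoxia list.

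Among sirtuins and NAD metabolism, 3 of 21 tested members had a called interaction, each below 0, while the median of the list was 0.13. Sirt1 (93759), the known target of SRT1720, had 49.2 and 42.3 CPM in SRT1720+RSL3 cells, 94.3 and 116 CPM in RSL3 cells, 27.1 and 27.2 CPM in SRT1720 cells and 27.1 and 29.6 CPM in control cells. Its level was highest with RSL3 alone and nearly equal in SRT1720 and control cells (-1.14 ± 0.18, adjusted p = 0.00733). The call of Sirt1 was lost without SRT1720 replicate 1 (adjusted p = 0.0558) or SRT1720+RSL3 replicate 2 (0.053). Nampt, the rate-limiting enzyme of NAD salvage, had 80.2 and 72.0 CPM in SRT1720+RSL3 cells, 136 and 167 CPM in RSL3 cells, 61.8 and 61.0 CPM in SRT1720 cells and 45.8 and 54.1 CPM in control cells (-1.29 ± 0.18, adjusted p = 0.0039). The third gene was Nadk2, the mitochondrial NAD kinase, at -0.74 ± 0.19 (adjusted p = 0.0456), and it lost the call in 10 of the settings run, among them the replicate block (adjusted p = 0.0572) and library size scaling (0.0686).

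Cholesterol synthesis had 10 of 28 tested members with a called interaction below 0 and 0 above 0, and 27 members lay below 0 (median -0.44), against 2.92% called below 0 and 51.9% with values below 0 over all tested genes. Insig1 (231070), the endoplasmic reticulum protein that holds back SREBP and is itself an SREBP target, had 154 and 135 CPM in SRT1720+RSL3 cells, 444 and 411 CPM in RSL3 cells, 64.2 and 70.4 CPM in SRT1720 cells and 39.1 and 38.9 CPM in control cells. The log2 effect of SRT1720 was -1.57 with RSL3 and 0.79 without it, both past the threshold, with an interaction of -2.35 ± 0.15 (adjusted p = 8.3e-05). Hmgcs1, the cytosolic HMG-CoA synthase, had 102 and 80.2 CPM in SRT1720+RSL3 cells, 174 and 197 CPM in RSL3 cells, 105 and 100.5 CPM in SRT1720 cells and 82.0 and 82.4 CPM in control cells (-1.35 ± 0.18, adjusted p = 0.00269). Cyp51, the lanosterol demethylase, had effects of SRT1720 of -0.47 with RSL3 and 0.49 without it (interaction -0.97 ± 0.12). The epoxidase Sqle (-0.94 ± 0.18) was named after its values were seen, and it lost its call without any 1 of control replicate 1 (adjusted p = 0.0502), SRT1720 replicate 1 (0.0888), SRT1720 replicate 2 (0.0834), SRT1720+RSL3 replicate 1 (0.0681) and SRT1720+RSL3 replicate 2 (0.103).

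**Figure D3:**
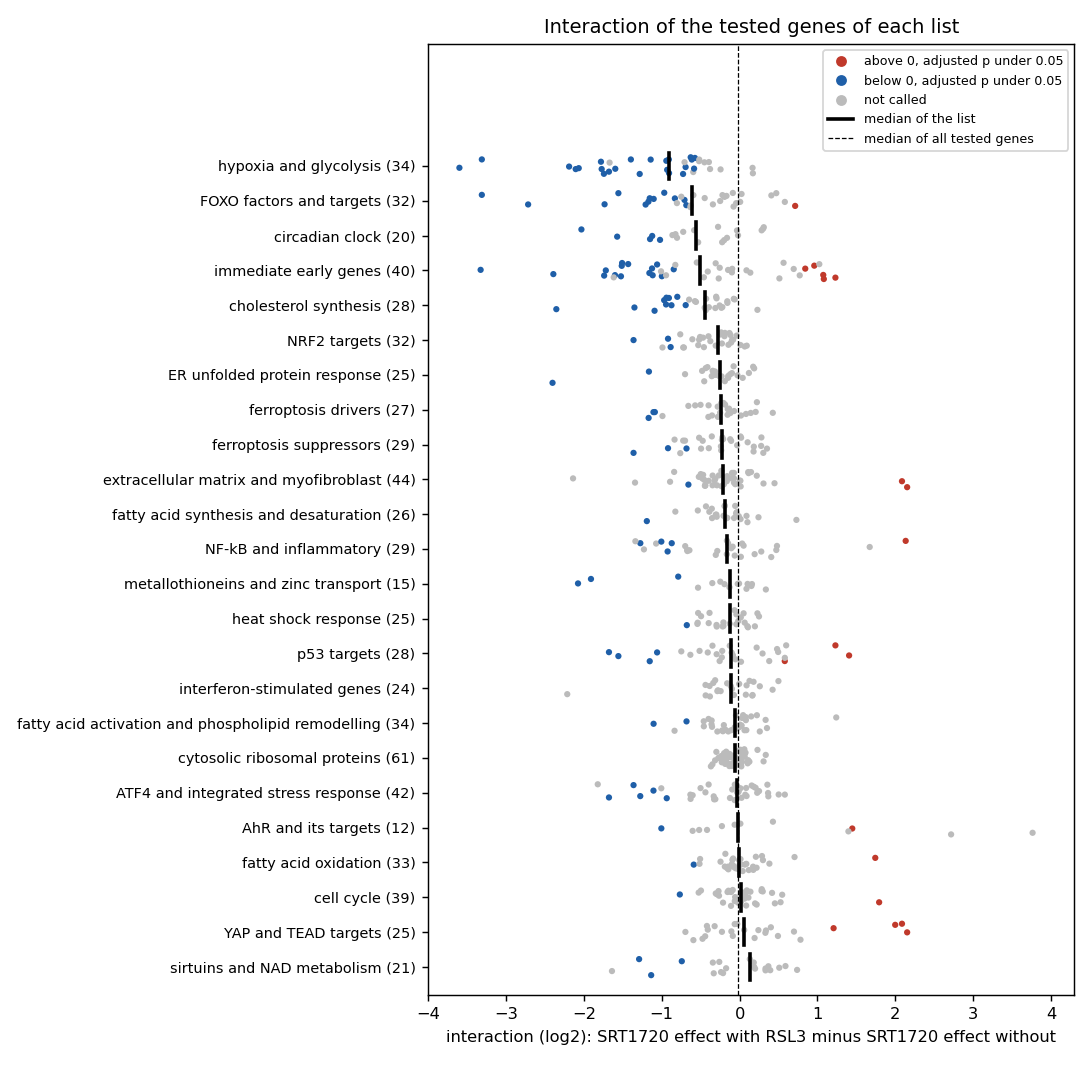
Interaction (log2, horizontal axis) of every tested gene of the 24 gene lists, with the number of tested genes in brackets; red and blue points are called above and below 0, grey points were not called, thick bars are list medians and the dashed line is the median of all tested genes. The hypoxia and glycolysis list lies furthest to the left (median -0.91), and the called members of the YAP and TEAD list lie to the right.

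Genes of fatty acid metabolism, named in the study's title, had called interactions at about the share of all tested genes (6.37%). Among 33 tested genes of fatty acid oxidation, 1 was called above and 1 below 0 (median -0.01), among 26 of synthesis and desaturation 0 above and 1 below (median -0.18), and among 34 of activation and phospholipid remodelling 0 above and 2 below (median -0.06). Acot2 (171210), a mitochondrial acyl-CoA thioesterase, had 29.8 and 33.9 CPM in SRT1720+RSL3 cells, 11.6 and 12.7 CPM in RSL3 cells, 3.90 and 4.45 CPM in SRT1720 cells and 5.02 and 5.66 CPM in control cells. The SRT1720+RSL3 libraries were highest. The effect of SRT1720 was 1.39 with RSL3 and -0.35, not past the threshold, without it (1.74 ± 0.21, adjusted p = 0.00186). Acot2 has close paralogues, so the division of reads among them is uncertain. Scd2, a stearoyl-CoA desaturase, had 167 and 150.2 CPM in SRT1720+RSL3 cells, 377 and 397 CPM in RSL3 cells, 334 and 328 CPM in SRT1720 cells and 359.6 and 347 CPM in control cells (-1.19 ± 0.13, adjusted p = 0.00108). Only SRT1720+RSL3 cells were low. Scd1 had an interaction of -0.36 ± 0.18 (95% interval -0.76 to 0.05; adjusted p = 0.292). Lpin1, a phosphatidate phosphatase (-1.10 ± 0.22), and the acyl-CoA synthetase gene Acsl3 (-0.68 ± 0.16) had called values below 0 that were lost when single libraries were left out, for example SRT1720 replicate 1 (adjusted p = 0.0884 and 0.0848). Cpt1a, the carnitine palmitoyltransferase that admits fatty acids to mitochondria, had 25.2 and 25.0 CPM in SRT1720+RSL3 cells, 28.4 and 34.2 CPM in RSL3 cells, 29.5 and 28.0 CPM in SRT1720 cells and 36.2 and 28.8 CPM in control cells. The SRT1720+RSL3 libraries were lowest and the other groups overlapped. Its interaction was -0.14 ± 0.20 (95% interval -0.58 to 0.29; adjusted p = 0.735), with a sign that changed when control replicate 2 (0.01) or RSL3 replicate 2 (0.000655) was left out.

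In the lists tied to ferroptosis, the called interactions were all below 0. Of 29 suppressors 3 had a called interaction below 0 and 0 above, and 20 had values below 0 (median -0.23). Of 27 drivers 3 were called below and 0 above, and 21 had values below 0 (median -0.24). Of 32 NRF2 targets 3 were called below and 0 above, and 29 had values below 0 (median -0.28). Over all tested genes, 2.92% were called below 0 and 51.9% had values below 0. Slc7a11 (26570), the cystine transporter subunit that feeds glutathione synthesis, had 59.8 and 48.1 CPM in SRT1720+RSL3 cells, 89.6 and 94.6 CPM in RSL3 cells, 10.5 and 9.57 CPM in SRT1720 cells and 5.71 and 7.60 CPM in control cells. RSL3 raised it in both backgrounds, less with SRT1720 (-1.36 ± 0.22, adjusted p = 0.0077; adjusted p = 0.065 without SRT1720 replicate 1). Sqstm1, the autophagy receptor p62, had 1937 and 1909 CPM in SRT1720+RSL3 cells, 2421 and 2463 CPM in RSL3 cells, 479.8 and 490.0 CPM in SRT1720 cells and 307 and 345 CPM in control cells (-0.92 ± 0.13, adjusted p = 0.00357). Sat1, a polyamine acetyltransferase listed as a driver, had effects of SRT1720 of -0.53 with RSL3 and 0.64 without it (-1.17 ± 0.14). Chac1, which degrades glutathione, had 891 and 988 CPM in SRT1720+RSL3 cells, 1015 and 907 CPM in RSL3 cells, 33.9 and 30.5 CPM in SRT1720 cells and 14.8 and 15.7 CPM in control cells. Its RSL3 and SRT1720+RSL3 libraries overlapped while SRT1720 alone raised it, and the interaction was -1.11 ± 0.15 (adjusted p = 0.00357). On the linear scale the interaction of Chac1 was -38.0 CPM, against 978 CPM expected in SRT1720+RSL3 cells if the effects added.

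Other much used ferroptosis genes were called in some cases and not in others. Hmox1 (15368), heme oxygenase, had 5578 and 5678 CPM in SRT1720+RSL3 cells, 8015 and 8765 CPM in RSL3 cells, 137 and 140.0 CPM in SRT1720 cells and 68.9 and 139 CPM in control cells. The SRT1720+RSL3 libraries were below both RSL3 libraries, but the control libraries were far apart, and the interaction was -0.99 ± 0.34 (adjusted p = 0.123). The interaction was -1.58 without control replicate 2, -0.64 without the first library of both control and RSL3, and -1.52 without the second of both. It was called in each of these fits, which leave a single library in some groups. Gpx4, the target of RSL3, had 353 and 386 CPM in SRT1720+RSL3 cells, 410.2 and 337 CPM in RSL3 cells, 338 and 376 CPM in SRT1720 cells and 327 and 284 CPM in control cells, and its interaction was -0.24 ± 0.17 (95% interval -0.62 to 0.14; adjusted p = 0.474). The 3 treated groups overlapped, and both control libraries lay below them. Acsl4, which loads polyunsaturated fatty acids into phospholipids, had -0.35 ± 0.18 (-0.75 to 0.04; adjusted p = 0.285). Ptgs2, the inducible cyclooxygenase often read as a ferroptosis marker, had 1562 and 1319.9 CPM in SRT1720+RSL3 cells, 1331 and 1721 CPM in RSL3 cells, 349.8 and 333 CPM in SRT1720 cells and 185 and 176 CPM in control cells (-1.01 ± 0.18, adjusted p = 0.0133). On the linear scale the interaction of Ptgs2 was -246 CPM, against 1687 CPM expected in SRT1720+RSL3 cells if the effects added. As in Chac1, the libraries with RSL3 overlapped and SRT1720 alone raised the gene; the call was lost without SRT1720 replicate 1 (adjusted p = 0.0848), SRT1720 replicate 2 (0.0628) or SRT1720+RSL3 replicate 2 (0.0856). Tfrc, the transferrin receptor, had -1.09 ± 0.21 and lost its call without the same 3 libraries (0.0922, 0.0679 and 0.0944). Srxn1, sulfiredoxin and an NRF2 target named after its values were seen, was not called (-0.47 ± 0.14, adjusted p = 0.0734); it was called by DESeq2 (0.0372), with GC and length trends removed (0.0462) and without RSL3 replicate 1 (0.0348).

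Heat shock genes, which encode protein-folding chaperones, had 1 called member. The median effect of RSL3 on 25 members was 1.04 with SRT1720 and 1.23 without it, and the called member was the chaperone Hspa4l (-0.68 ± 0.14, below 0). Hspa4l lost its call with GC and length trends removed (adjusted p = 0.0581) and without any 1 of the control, SRT1720 and SRT1720+RSL3 libraries. The inducible chaperone Hspa1b had 4355 and 4109 CPM in SRT1720+RSL3 cells, 7284 and 5971 CPM in RSL3 cells, 61.6 and 106 CPM in SRT1720 cells and 99.6 and 82.3 CPM in control cells (-0.53 ± 0.30, 95% interval -1.21 to 0.14; adjusted p = 0.353). It was named after its values were seen, and reads cannot be assigned with certainty between it and its near-identical copy Hspa1a. In the ATF4 programme, the transcriptional arm of the integrated stress response, the median effect of RSL3 on 42 members was 1.40 with SRT1720 and 1.36 without it. Of those 42, 5 had a called interaction below 0 and 0 above. Atf3 had 359 and 372 CPM in SRT1720+RSL3 cells, 763 and 664 CPM in RSL3 cells, 11.6 and 12.4 CPM in SRT1720 cells and 9.44 and 9.90 CPM in control cells (-1.28 ± 0.15, adjusted p = 0.00166), and Ddit4, an inhibitor of mTORC1, had 245 and 232 CPM in SRT1720+RSL3 cells, 583 and 541 CPM in RSL3 cells, 26.4 and 27.9 CPM in SRT1720 cells and 22.1 and 17.8 CPM in control cells (-1.68 ± 0.16, adjusted p = 0.000653). Both were far above control in SRT1720+RSL3 cells and lower there than in RSL3 cells.

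In the list for the unfolded protein response (ER stress), 2 of 25 members were called, both below 0 (median -0.26). Dnajb9, a chaperone that restrains IRE1, had 62.3 and 49.0 CPM in SRT1720+RSL3 cells, 159.9 and 197 CPM in RSL3 cells, 14.1 and 11.5 CPM in SRT1720 cells and 7.85 and 7.69 CPM in control cells (-2.40 ± 0.23, adjusted p = 0.000653). Herpud1, part of the degradation machinery of that compartment, had -1.16 ± 0.16. Interferon-stimulated genes (24 members, median -0.11) and cytosolic ribosomal protein genes (61 members, median -0.06) had 0 called members in edgeR, limma-voom and DESeq2, and 1 and 2 members had an unadjusted p under 0.05 in edgeR.

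**Figure D4:**
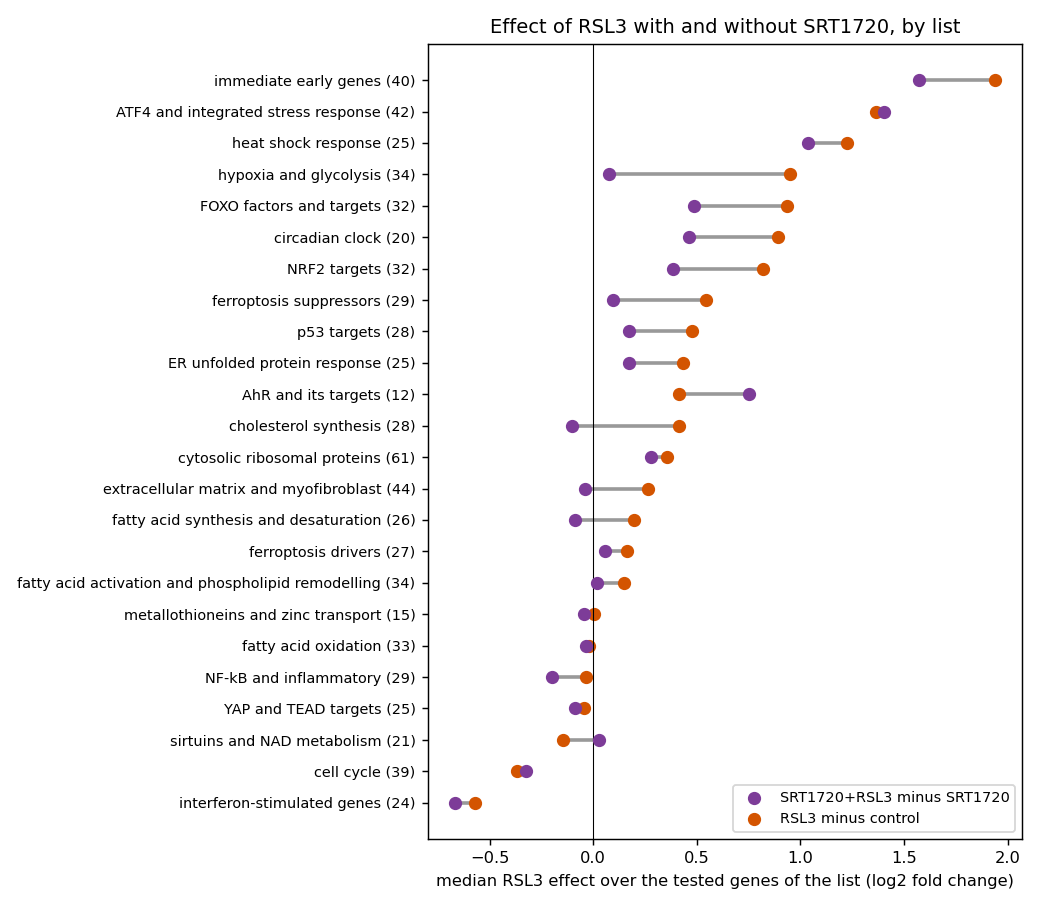
Median effect of RSL3 (log2 fold change, horizontal axis) over the tested genes of each list, in purple with SRT1720 (SRT1720+RSL3 minus SRT1720) and in orange without it (RSL3 minus control). The hypoxia and glycolysis list shows the widest gap, 0.08 with SRT1720 and 0.95 without it, while the ATF4 list shows 1.40 and 1.36.

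Immediate early genes, which are switched on within minutes of a stimulus, moved in both directions: of 40 tested members, 15 had a called interaction below 0 and 5 above 0 (median -0.50). Zfp36, an RNA-binding protein that speeds decay of cytokine messages, had 74.1 and 71.0 CPM in SRT1720+RSL3 cells, 326 and 312 CPM in RSL3 cells, 22.4 and 18.8 CPM in SRT1720 cells and 17.6 and 16.9 CPM in control cells (-2.39 ± 0.15, adjusted p = 8.3e-05). Nr4a2, an orphan nuclear receptor, had 12.6 and 10.4 CPM in SRT1720+RSL3 cells, 39.5 and 76.4 CPM in RSL3 cells, 7.61 and 7.41 CPM in SRT1720 cells and 4.93 and 2.61 CPM in control cells (-3.33 ± 0.47, adjusted p = 0.00422). In both genes the RSL3 libraries were above all others. Klf4, a transcription factor, had effects of SRT1720 of -1.13 with RSL3 and 0.61 without it (-1.74 ± 0.13), and Ier3 had -0.95 and 0.65 (-1.60 ± 0.13). Gem, a small GTPase outside the list, had 9.22 and 11.0 CPM in SRT1720+RSL3 cells, 57.1 and 50.2 CPM in RSL3 cells, 4.79 and 5.20 CPM in SRT1720 cells and 2.96 and 1.68 CPM in control cells (-3.51 ± 0.30, adjusted p = 0.000349). Members above 0 included Plk2, a kinase induced by stress, with 572 and 533 CPM in SRT1720+RSL3 cells, 192 and 231 CPM in RSL3 cells, 149 and 145 CPM in SRT1720 cells and 140.4 and 123 CPM in control cells (1.23 ± 0.16, adjusted p = 0.00269). There the SRT1720+RSL3 libraries were highest. Dusp6, a phosphatase that switches off ERK, had 58.1 and 60.1 CPM in SRT1720+RSL3 cells, 19.8 and 15.5 CPM in RSL3 cells, 56.4 and 59.7 CPM in SRT1720 cells and 34.0 and 39.3 CPM in control cells (1.08 ± 0.19, adjusted p = 0.0103). SRT1720 raised Dusp6 in both backgrounds; its call was lost without SRT1720 replicate 1 (adjusted p = 0.0751), SRT1720 replicate 2 (0.0552) or SRT1720+RSL3 replicate 2 (0.0605).

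The YAP and TEAD list had 4 of 25 members with a called interaction, each above 0, while its median was 0.06. Ccn1 (16007), a matricellular protein secreted by fibroblasts, had 2363 and 2325 CPM in SRT1720+RSL3 cells, 426 and 373 CPM in RSL3 cells, 1257 and 1257 CPM in SRT1720 cells and 915 and 989 CPM in control cells. RSL3 cells were lowest and SRT1720+RSL3 cells highest, with no overlap between groups (2.15 ± 0.13, 95% interval 1.85 to 2.45; adjusted p = 8.3e-05). Ccn2 (14219), the connective tissue growth factor, had 1554 and 1376 CPM in SRT1720+RSL3 cells, 313 and 364 CPM in RSL3 cells, 592 and 579 CPM in SRT1720 cells and 514 and 634 CPM in control cells (2.09 ± 0.18, adjusted p = 0.000334). Amotl2, a junction protein that binds YAP, had 205 and 187 CPM in SRT1720+RSL3 cells, 82.5 and 94.5 CPM in RSL3 cells, 217 and 245 CPM in SRT1720 cells and 228 and 254 CPM in control cells, so that SRT1720+RSL3 cells were between RSL3 and control cells (1.21 ± 0.16, adjusted p = 0.00273). Ankrd1, named after its values were seen, had 103 and 107 CPM in SRT1720+RSL3 cells, 33.2 and 14.4 CPM in RSL3 cells, 86.0 and 85.8 CPM in SRT1720 cells and 89.7 and 65.7 CPM in control cells (2.00 ± 0.41, adjusted p = 0.0206), and its call was lost without either SRT1720 library (adjusted p = 0.121 and 0.106) or either SRT1720+RSL3 library (0.0817 and 0.0981). Ccn1 and Ccn2 were also the 2 members above 0 in the list of extracellular matrix and myofibroblast genes, in which 1 of 44 was below 0, the lysyl oxidase family gene Loxl2 (-0.66 ± 0.16). Loxl2 lost its call with library size scaling (adjusted p = 0.0565) and in most omissions of a library.

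Signalling genes were also among those above 0. Tnfaip3, which encodes A20, a brake on NF-kB signalling, had 65.9 and 60.1 CPM in SRT1720+RSL3 cells, 16.2 and 11.9 CPM in RSL3 cells, 37.6 and 37.5 CPM in SRT1720 cells and 41.6 and 32.0 CPM in control cells (2.13 ± 0.23, adjusted p = 0.00116). Edn1, the vasoconstrictor endothelin-1, had 7.33 and 6.67 CPM in SRT1720+RSL3 cells, 1.47 and 2.27 CPM in RSL3 cells, 4.66 and 3.31 CPM in SRT1720 cells and 8.11 and 6.94 CPM in control cells (2.82 ± 0.34, adjusted p = 0.00199). The RSL3 libraries were lowest for both genes. In the list of NF-kB and inflammatory genes, which holds Tnfaip3, 1 of 29 tested members was above 0 and 4 were below (median -0.16). Of 12 tested genes of the aryl hydrocarbon receptor and its targets, 1 was above and 1 below 0 (median -0.03). The circadian list had 5 of 20 members below 0 and 0 above (median -0.56), with the repressor gene Per1 at -1.12 ± 0.19 (adjusted p = 0.0736 without SRT1720 replicate 1 and 0.0636 without SRT1720+RSL3 replicate 1). Metallothioneins, which bind zinc and copper, had Mt1 at 751 and 952 CPM in SRT1720+RSL3 cells, 1679 and 1067 CPM in RSL3 cells, 371 and 339 CPM in SRT1720 cells and 139 and 133 CPM in control cells (-2.08 ± 0.27, adjusted p = 0.00269). The RSL3 libraries were wide apart for Mt1, and the lower was close to the SRT1720+RSL3 libraries. Of 15 tested genes of metallothioneins and zinc transport, 3 were below and 0 above 0 (median -0.13). Of 39 cell cycle genes, 1 was above and 1 below 0 (median 0.02), and of 28 p53 targets, 3 were above and 4 below (median -0.11).

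Many of the genes with the largest interactions above 0 were low in RSL3 cells and had few exons. H2ac24 (319171), a replication-type histone H2A gene, had 65.5 and 80.2 CPM in SRT1720+RSL3 cells, 13.6 and 12.7 CPM in RSL3 cells, 110.3 and 128 CPM in SRT1720 cells and 173 and 153 CPM in control cells (2.92 ± 0.19, adjusted p = 8.3e-05). Its copies are near-identical, so the division of reads among them is uncertain. Trmt12 and Lcmt2, both enzymes of wybutosine synthesis in phenylalanine tRNA, had interactions of 2.62 ± 0.30 and 2.25 ± 0.29. Riox1, a ribosomal oxygenase of the nucleolus, had 34.4 and 30.6 CPM in SRT1720+RSL3 cells, 6.88 and 6.43 CPM in RSL3 cells, 23.6 and 26.2 CPM in SRT1720 cells and 26.0 and 28.2 CPM in control cells (2.41 ± 0.17, adjusted p = 0.000198). Ddx28, a mitochondrial RNA helicase, had 2.31 ± 0.25, Pars2, the mitochondrial prolyl-tRNA synthetase, 2.25 ± 0.32, and Haspin, a kinase of histone H3, 1.79 ± 0.27. In each of these 7 genes the coding sequence lies in 1 exon. Gemin4, part of the SMN complex that assembles spliceosomal particles, was named after its values were seen; it has 2 coding exons and had 38.8 and 41.8 CPM in SRT1720+RSL3 cells, 11.1 and 11.0 CPM in RSL3 cells, 55.0 and 52.3 CPM in SRT1720 cells and 54.7 and 53.8 CPM in control cells (1.88 ± 0.14, adjusted p = 0.000246). In Gemin4 and Riox1 both RSL3 libraries were below all 6 others.

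This structure was common among the genes above 0. Of 430 with an annotated structure in GENCODE, 87 (20.2%) had a single coding exon, against 27 of 363 genes below 0 (7.44%) and 685 of 12373 tested genes (5.54%). Among genes lower with RSL3 on average that had no called interaction, the share was 8.35%. Read by structure, 12.7% of tested genes with 1 coding exon were called above 0, 5.02% of those with 2 to 3, 4.24% with 4 to 6, 2.73% with 7 to 12 and 1.52% with over 12, while the share called below 0 lay between 2.34% and 4.86%. Median gene span was 12298.5 bases above 0 and 18361 bases below 0, against 22210 bases over all tested genes; median transcript length differed little, 3034, 3169 and 3001 bases, and median GC content was 51.4%, 50.1% and 50.6%. Genes with zinc finger symbols (Zfp with a number, Zscan, Zbtb and Zkscan), most of them known or presumed DNA-binding repressors, made up 74 of the 436 genes above 0 (17.0%), 5 of the 368 below 0 (1.36%) and 403 of all tested genes (3.19%). The median effect of RSL3 over these 403 genes was -0.04 with SRT1720 and -0.47 without it. Zfp955a had 15.2 and 14.7 CPM in SRT1720+RSL3 cells, 4.31 and 3.37 CPM in RSL3 cells, 17.3 and 18.9 CPM in SRT1720 cells and 12.5 and 13.0 CPM in control cells (1.45 ± 0.21, adjusted p = 0.00423). Only 11 of the called genes were in both classes, and 150 of the 436 were in either. Without the zinc finger symbols, 11.8% of tested genes with 1 coding exon were called above 0. The share was then 4.16% with 2 to 3 coding exons, 2.88% with 4 to 6, 2.65% with 7 to 12 and 1.53% with over 12. The count of 87 fell to 27 without SRT1720 replicate 1, 38 without SRT1720 replicate 2, 37 without SRT1720+RSL3 replicate 1 and 43 without SRT1720+RSL3 replicate 2. Gene structure was not among the lists and was examined after earlier results were known, and the division of reads within zinc finger families is uncertain.

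**Figure D5:**
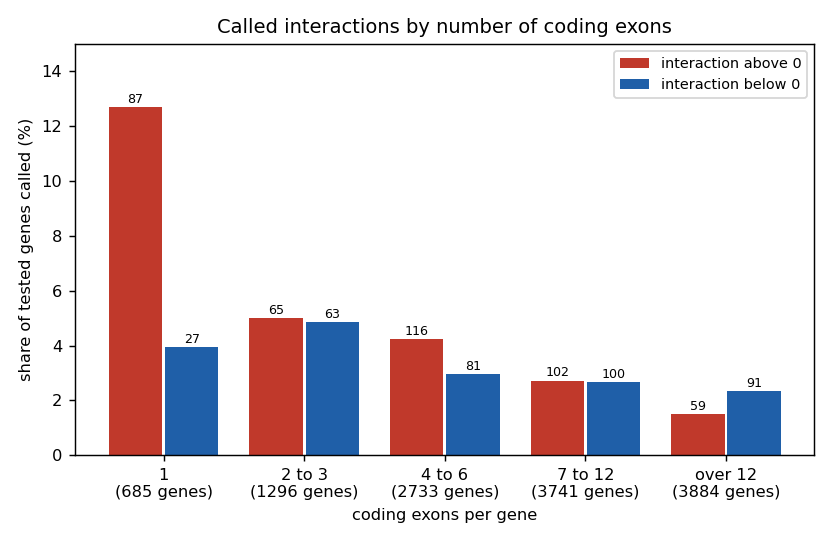
Share of tested genes (%) with a called interaction above 0 (red) and below 0 (blue), by number of coding exons; the number on top of each bar counts the called genes. The red share is 12.7% for genes with 1 coding exon and 1.52% for genes with over 12.

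The rarer shapes were examined by the 3 genes of smallest p in each. Genes raised by SRT1720 without RSL3 and flat with it included Il1rl1, the receptor of interleukin-33, with 2030.0 and 1876 CPM in SRT1720+RSL3 cells, 2037 and 2072 CPM in RSL3 cells, 1464 and 1350.1 CPM in SRT1720 cells and 613 and 611 CPM in control cells (-1.28 ± 0.12, adjusted p = 0.000679). The control libraries were lowest, and the SRT1720 libraries lay between them and the libraries with RSL3. Inhbb, Flrt3 and Taf7 were the 3 genes whose log2 effect of SRT1720 was -0.5 or lower without RSL3 and between -0.5 and 0.5 with it, but of these 3 effects without RSL3, that of Inhbb passed the threshold and those of Flrt3 (adjusted p = 0.143) and Taf7 (0.206) did not. The interaction of Taf7 also lost its call in DESeq2 (0.0649), with the replicate block (0.0522) and in most omissions of a library. That of Flrt3 lost its call without control replicate 2, without either SRT1720 library or without either SRT1720+RSL3 library. Inhbb, an activin subunit, had 2.64 and 2.73 CPM in SRT1720+RSL3 cells, 3.47 and 4.06 CPM in RSL3 cells, 4.48 and 5.29 CPM in SRT1720 cells and 18.2 and 16.1 CPM in control cells (1.33 ± 0.25, adjusted p = 0.0158). Control cells were high and the other 3 groups low; the call was lost without SRT1720 replicate 1 (adjusted p = 0.0867), SRT1720+RSL3 replicate 1 (0.0681) or SRT1720+RSL3 replicate 2 (0.0852). The 2 genes lower in both backgrounds were Mpp2 and Arf2, at -0.69 ± 0.17 and -0.99 ± 0.22. Arf2 lost its call without control replicate 1 or without any 1 of the SRT1720 and SRT1720+RSL3 libraries (adjusted p = 0.0672 to 0.163). Mpp2 lost its call with library size scaling (0.0785), with no low-count filter (0.0508) and in most omissions of libraries, with 0.208 as its highest adjusted p. A gene with no called interaction is shown by Rgs16, a regulator of G protein signalling named after its values were seen, with 895 and 916 CPM in SRT1720+RSL3 cells, 297 and 259 CPM in RSL3 cells, 311 and 307 CPM in SRT1720 cells and 105 and 104 CPM in control cells. SRT1720 raised it by 1.70 with RSL3 and 1.57 without it, and the interaction was 0.14 ± 0.13 (95% interval -0.16 to 0.43). Txnip, an inhibitor of thioredoxin also named after its values were seen, was lower with SRT1720 in both backgrounds, with log2 effects of -1.25 with RSL3 and -1.72 without it (interaction 0.47 ± 0.28).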

How the data were processed

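RNA libraries (TruSeq Stranded mRNA, Illumina HiSeq, per the labels' protocols) of 8 samples were used. The authors deposited expected counts per gene; how reads were aligned and counted, and on which build, is not given in the sources used here. Columns were matched to samples by library name, although the extraction text of the labels names HT1080 cells and lung homogenates, not fibroblasts. Counts were rounded and analysed with edgeR 4.0.16 (R 4.3.3): TMM scaling, filterByExpr, glmQLFit with 1 mean per group over all 8 libraries, with 4 residual and 5.73 prior degrees of freedom and a common dispersion of 0.0112 (coefficient of variation 10.6%). P-values were adjusted by the Benjamini-Hochberg method at a threshold of 0.05. Depth was 20579122 to 21287620 counts a library. The test was checked on simulated counts. Structures came from GENCODE and promoters from RefSeq, matched by gene ID. Alternatives used RLE factors, library size, no filter, limma-voom (limma 3.58.1), DESeq2 1.42.0, a robust fit, removal of GC and length trends, a replicate block and omitted libraries.

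The members, the 24 lists (718 genes, 674 tested) and the tests were chosen with earlier results of these data known. Genes were named by rule among called genes of at least 5 CPM, predicted loci skipped: the 10 largest interactions in each direction, the 3 smallest p of each of 9 shapes, up to 3 members of each list, and 10 study genes whatever their p (81 genes); others are stated as named after their values were seen. Not every gene the rule names is described. No set test was made.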

Additional observations from a re-analysis of the deposited data

Results flagged for a closer look

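For 15 genes both effects of SRT1720 passed the threshold with opposite signs, lower with SRT1720 in RSL3-treated cells and higher with SRT1720 in cells without RSL3, and the interaction itself passed in edgeR. The interactions were -2.35 for Insig1, -2.11 for Vegfa, -2.08 for Mt1, -1.77 for Ndrg1, -1.74 for Slc2a1, -1.74 for Klf4, -1.70 for Adamts9, -1.60 for Ier3, -1.56 for Cdkn1a, -1.42 for Rsbn1, -1.37 for Kansl1l, -1.17 for Sat1, -1.13 for Fzd5, -0.97 for Cyp51 and -0.92 for Sqstm1. They were among 108 genes with both effects past the threshold, of which 92 had the same sign in both; 1 predicted locus with opposite signs is not listed.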

How the results depend on the processing

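Calls came to 436 genes above 0 and 368 below. They stayed within 1.5 times these counts with RLE factors, library size, no filter, limma-voom, DESeq2 (466 and 453) and the robust fit, while removal of GC and length trends gave 655 and 555. The cause was not tested. With the replicate block they were 428 and 361. Replicate numbers did not pair all groups: deviations within pairs correlated at 0.70 for control with RSL3, -0.29 for control with SRT1720+RSL3 and -0.41 for RSL3 with SRT1720+RSL3, and the SRT1720 pair followed none (-0.02 with each). Leaving out 1 library gave 83 to 707 genes above 0 and 100 to 540 below. Without the first library of both control and RSL3, an alternative chosen after seeing the data, there were 801 and 729, and without the second of both there were 632 and 592. Single-coding-exon genes above 0 came to 27 to 116 with 1 library left out. The share of genes with an average RSL3 effect whose interaction was opposite in sign was 68.1%, with 65.8% to 72.3% with 1 library left out, 66.0% without both numbered 1 and 71.4% without both numbered 2. For the average SRT1720 effect it was 20.4%, with 12.9% to 33.6% and 26.3% without both numbered 1.

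Shape counts followed their boundary. Flat and higher (385) came to 191 at a boundary of 1 and 112 at an adjusted p under 0.01, flat and lower (217) to 130 and 66, higher and lower (58) to 153 at a boundary of 0.25, 6 at 1 and 34 at the stricter p, and higher and flat (39) to 21, 16 and 12, and to 66 at an adjusted p under 0.1. In 5 of the 24 lists DESeq2 called more than 1.5 times as many members as edgeR: 8 of NRF2 targets (3 in edgeR), 7 of ferroptosis suppressors (3), 8 of NF-kB and inflammatory genes (5), 4 of the unfolded protein response (2) and 2 of fatty acid synthesis and desaturation (1). Of 92 named genes that were called, 57 kept the call under every alternative run. The sign turned for Cpt1a, at 0.0115 without control replicate 2, 0.000655 without RSL3 replicate 2 and 0.15 when the second library of both control and RSL3 was left out, with -0.315 to 0.0115 over all single omissions. At this depth, 5292 genes were too low to test.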
